A study of Mus musculus with 6 samples.

Results

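Wnt pathway genes were compared between chondrocytes, the cells of cartilage, with and without the microRNA miR-34a. The genes were chosen by name: rows whose symbol is that of a Wnt ligand, a Frizzled, LRP, Ror, Ryk or LGR receptor, an R-spondin, a secreted antagonist, a part of the β-catenin destruction complex, a nuclear factor of the pathway or one of its regulators. 37 of the 10189 genes in the deposited table carry such a symbol. The 3 KO samples came from C57BL/6 mice that were MiR-34a -/- (model Mir34atm1.2 Mrl), a deletion present in every cell of the animal and not limited to cartilage, and the 3 wild-type samples from mice with the normal gene. Both genotypes were 5 weeks old, had no treatment, and gave articular cartilage of knee and hip that was pooled, digested with collagenase at 3 mg/ml and grown with 10% serum before RNA extraction. Culture on plastic is a limit of the model, since chondrocytes lose part of their identity there. Whether samples that share a genotype are separate animals is not stated in the labels, so the tests below reflect the spread among these libraries, which may be technical.

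Wnt proteins are secreted lipid-modified ligands that bind Frizzled receptors and the co-receptors LRP5 and LRP6. Binding halts a destruction complex of Axin, APC and GSK3, so that β-catenin accumulates and drives target genes together with TCF and LEF factors. In joints, the pathway is held back by antagonists such as FRZB, which articular chondrocytes secrete, and too much or too little β-catenin activity damages cartilage. MicroRNAs of the miR-34 family are induced by p53 and have been studied as brakes on Wnt signalling in tumour cells.

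The deleted microRNA recognises targets through its seed, bases 2 to 8, shown in capitals in the mature sequence from RefSeq (GRCm38.p6, chr4:150068473-150068494, plus strand). Below it stand matches to that seed in 3′ UTRs of Wnt genes, in capitals, read from GENCODE M21 transcripts (mm10). They are shown for Lgr4 and Sfrp1, which have the highest and the lowest fold change among the Wnt genes with a match, and for Dvl1 and Wnt4, which lie between them. In Lgr4 and Dvl1 the match is followed by an A, which is also in capitals.
mmu-miR-34a-5p: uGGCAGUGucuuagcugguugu
Lgr4, chr2:110013762-110013783, plus strand: gtcagtagcaaaccCACTGCCA
Dvl1, chr4:155859134-155859155, plus strand: ccatcatcatgtgcCACTGCCA
Sfrp1, chr8:23447111-23447132, plus strand: gtttgggtgggaggcCACTGCC
Wnt4, chr4:137299100-137299121, plus strand: accacaggctagaacCACTGCC
Of the 37 Wnt genes, 9 (24.3%) hold a match to CACTGCC in their longest annotated 3′ UTR: Apc, Dvl1, Fzd8, Gsk3b, Lgr4, Ryk, Sfrp1, Wisp1 and Wnt4. Among 9645 genes with such a UTR, 1858 (19.3%) hold one. Among the mature sequences at hand, mouse miR-34b-5p, miR-449a-5p and miR-449c-5p have the same seed, GGCAGUG, and their genes are not deleted in this model. That list may leave out other microRNAs with this seed. A match is a string in a sequence and not a tested site.

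Expression is given as the deposited TMM-normalized CPM (CPM are counts relative to sequencing depth, and TMM, the trimmed mean of M-values, sets the scale between libraries). Whole reads could be recovered from these values: a library held 989217 to 5266617 reads, and 1 read was worth 0.382 to 0.762 CPM. In wild type 1, 77.9% of reads lay on Rn45s and Lars2, rows rich in ribosomal sequence. When Rn45s, Lars2 and Mir6236 are set aside, 947081 to 1772185 reads remain per library. The sources used here do not give the strand setting with which reads were counted. Tsix, which is antisense to Xist, stood at 8.12 to 16.5 times Xist in the 6 libraries, so reads of opposite strands may be mixed or swapped, and the value of any gene here may hold reads of an antisense transcript. Exons of 8 Wnt genes (Apc2, Ctnnb1, Dvl1, Fzd5, Gsk3a, Rspo3, Sfrp2 and Tle1) overlap exons of a gene on the opposite strand. Mir34a has no row, so the deletion itself was not measured in these data. In bulk samples, fewer cells of a type and less RNA per cell cannot be told apart.

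No Wnt gene passed the threshold of an adjusted p below 0.05 with limma on log2(CPM + 0.5), where 1 of 10189 genes did (0.00981%). With edgeR's quasi-likelihood method on the recovered reads, 0 of the 37 and 2 of all genes passed (0.0196%). At an unadjusted edgeR p below 0.05, 4 Wnt genes were higher and 2 lower (16.2% of the 37), with 466 higher and 593 lower among all 10189 genes. DESeq2 on these reads, with its own size factors, called Frzb higher and Sfrp1 lower, among 42 genes higher (0.412%) and 73 lower (0.716%) in all. With the deposited scaling as size factors, an alternative chosen after seeing the data, DESeq2 called Sfrp1 lower, among 26 genes higher (0.255%) and 102 lower (1%). Its filter on low means then gave Frzb no adjusted p (unadjusted p = 1.09e-05 with DESeq2). By limma's unadjusted p below 0.05, 4 Wnt genes were higher in KO (Frzb, Lgr4, Dkk3 and Rspo3) and 4 lower (Sfrp1, Sfrp2, Rspo2 and Nkd2). These 8 are 21.6% of the 37, while 11% of all genes had such a p (4.64% higher and 6.4% lower). The count rested on KO 1 in particular: without it, 1 gene was higher and 2 were lower, 8.11% against 8.71% of all genes. Without KO 3 it was 2 and 2 (10.8% against 11.1%), without KO 2 it was 6 and 5 (29.7% against 12.5%), and without wild type 1 and KO 2 together it was 8 and 6 (37.8% against 12.2%). Of the 29 Wnt genes with no opposite-strand exon, 3 were higher and 3 lower (20.7%, against 9.56% of 6462 such genes).

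Entry to the table bears on these counts. No row has a second highest value below 7.35 CPM, and for Frzb, Fzd9, Tle6 and Tle4 no wild-type value reached that level. These 4 rows could enter only through their KO libraries, and the DESeq2 call of Frzb as higher is for such a row. Among the other 33 Wnt genes, limma gave an unadjusted p below 0.05 to 3 that were higher and 4 that were lower (21.2%, against 11% of all genes). Their log2 fold changes had a median of 0.15 and lay above 0 in 19 of 33 (57.6%), against 0.02 and 51.4% over all genes. The values over all genes still include any rows that could enter through a single genotype, so these sets are not alike. With the 4 rows that the filter admitted through KO, the median was 0.22 and 23 of 37 lay above 0.

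**Figure D1:**
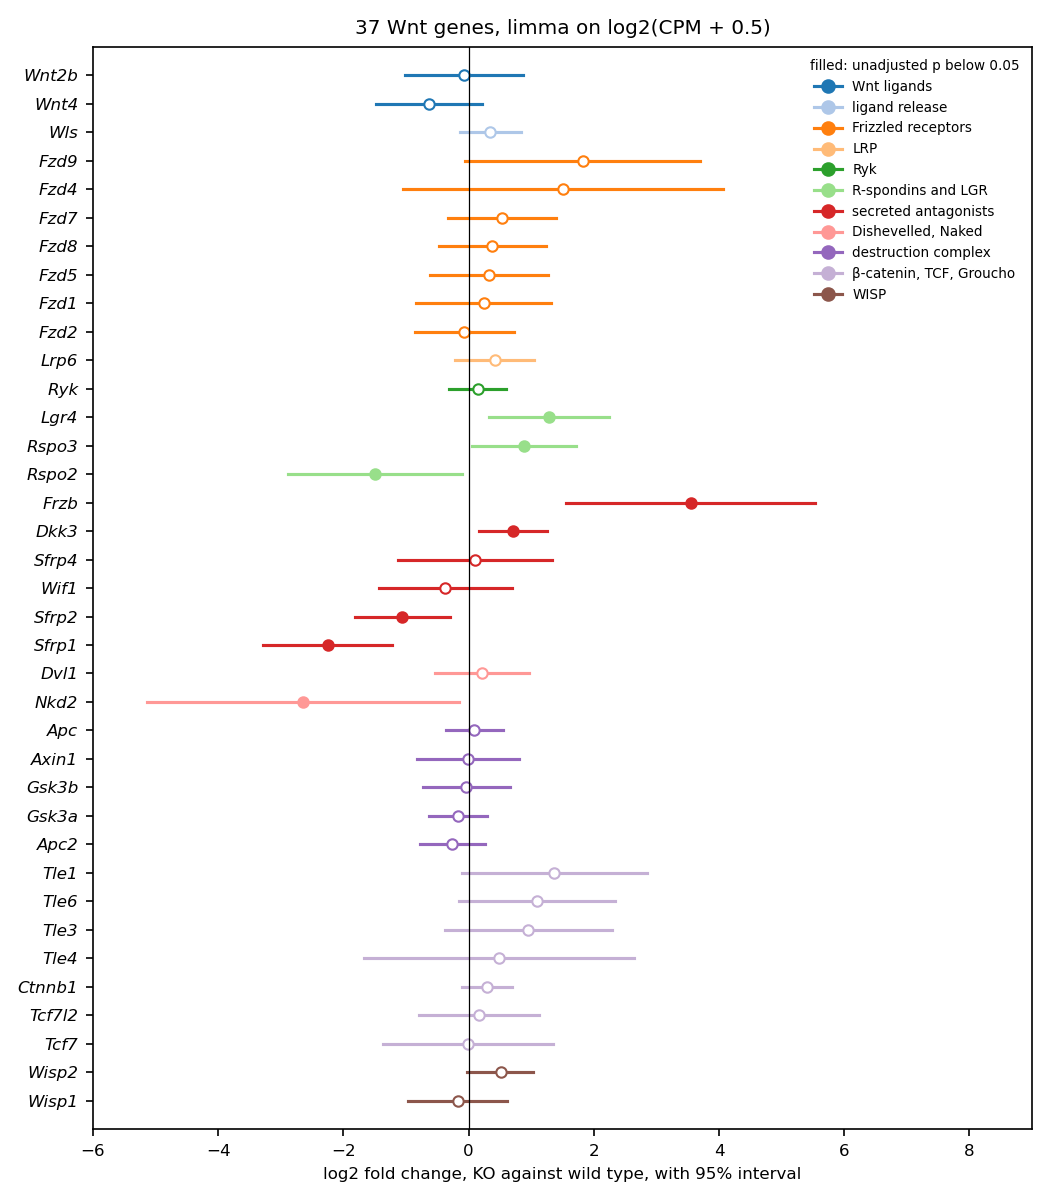
Log2 fold changes (x axis, KO against wild type, limma on log2(CPM + 0.5), 3 libraries per genotype) of the 37 Wnt genes in order of role, with lines for the 95% interval and filled points for an unadjusted p below 0.05. Secreted antagonists span from −2.25 (Sfrp1) to 3.55 (Frzb, whose row could enter the table only through KO), while the 5 genes of the destruction complex lie between −0.26 and 0.09.

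Differences among secreted antagonists ran in both directions. Sfrp1 encodes a secreted Frizzled-related protein, which binds Wnt ligands outside the cell. It lies on chromosome 8 at 23411502 to 23449632 (mm10). It had 83.6, 54.9 and 107 CPM in wild type 1, 2 and 3, and 8.01, 31.4 and 16.5 CPM in KO 1, 2 and 3. Each KO library lay below each wild-type library. The wild-type mean was 81.9 ± 26.3 CPM (SD, n = 3) and the KO mean 18.6 ± 11.8 CPM (SD, n = 3). The log2 fold change was −2.25 (SE 0.46, adjusted p with limma = 0.238, DESeq2 adjusted p = 0.00509). Without KO 2, the KO library with the most Sfrp1, it was −2.72 and passed with limma (adjusted p = 0.0347, with 0.245% of all genes called lower).

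Frzb encodes secreted Frizzled-related protein 3, an antagonist that is typical of articular cartilage and whose loss worsens joint damage in mice. It lies on chromosome 2 at 80411970 to 80447625. Wild type 1, 2 and 3 had 3.14, 3.81 and 0 CPM, that is 5, 5 and 0 reads. A count of 0 reads in wild type 3 allows up to 1.76 CPM, from 3 reads, which covers counting error only. KO 1, 2 and 3 had 28.6, 17.6 and 23.2 CPM, or 75, 36 and 38 reads. The groups did not overlap, and the log2 fold change was 3.55 (SE 0.88, adjusted p with limma = 0.273, DESeq2 adjusted p = 0.0049). It was 2.55 without wild type 3, the library with 0 reads. The value therefore depends on a few wild-type reads and on the pseudocount, and with a pseudocount of 0.1 CPM it was 4.40. The row of Frzb could enter the table only through its KO libraries, so nothing is read from the direction of its fold change.

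Sfrp2, a relative of Sfrp1, had 71, 56.4 and 65.7 CPM in wild type and 17.9, 44.6 and 35.5 CPM in KO 1, 2 and 3. The groups did not overlap, and KO 1 was the lowest library. The log2 fold change was −1.06 (SE 0.33, adjusted p with limma = 0.315). Without KO 1 it was −0.68. Of its 2153 exon bases, 347 overlap Gm26771 on the opposite strand, whose reads cannot be told apart from its own here.

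Dkk3 encodes a member of the Dickkopf family, which unlike its relatives is not a clear inhibitor of LRP co-receptors. It had 161, 184 and 142 CPM in wild type and 343, 187 and 288 CPM in KO. KO 2 stood just above the highest wild-type library, and the other 2 KO libraries were well clear of it. The log2 fold change was 0.71 (SE 0.24, adjusted p with limma = 0.338).

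Sfrp4 and Wif1 did not separate the genotypes. Sfrp4 had 62.8, 25.1 and 12.3 CPM in wild type and 23.3, 46.5 and 22.6 CPM in KO, with a log2 fold change of 0.11 (95% interval −1.12 to 1.33). Wif1, which encodes Wnt inhibitory factor 1, had 116, 52.6 and 56.3 CPM in wild type and 44.7, 114 and 31.2 CPM in KO (log2 fold change −0.37, interval −1.43 to 0.70). For both genes wild type 1 and KO 2 were the highest libraries, so the spread ran across the genotypes.

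Per kb of exon, the 4 genes of the secreted Frizzled-related family that have a row (Sfrp1, Sfrp2, Sfrp4 and Frzb) summed to 68.1, 45.9 and 58.0 CPM in wild type and 24.6, 44.5 and 32.9 CPM in KO. The sum of KO 2 was close to that of wild type 2, the lowest of wild type. Frzb made up 0 to 2.56% of the sum in wild-type libraries and 12.3% to 36.0% in KO libraries. Its row could enter the table only through KO, so nothing is read from the direction of that difference. Sfrp1 made up 27.3% to 42.3% in wild type and 7.46% to 16.1% in KO, of a sum that includes Frzb. Sfrp2 was the main member in 5 of the 6 libraries, with 46.6% to 57.0%. In KO 1, where Sfrp2 made up 33.9%, the highest share was that of Frzb.

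**Figure D2:**
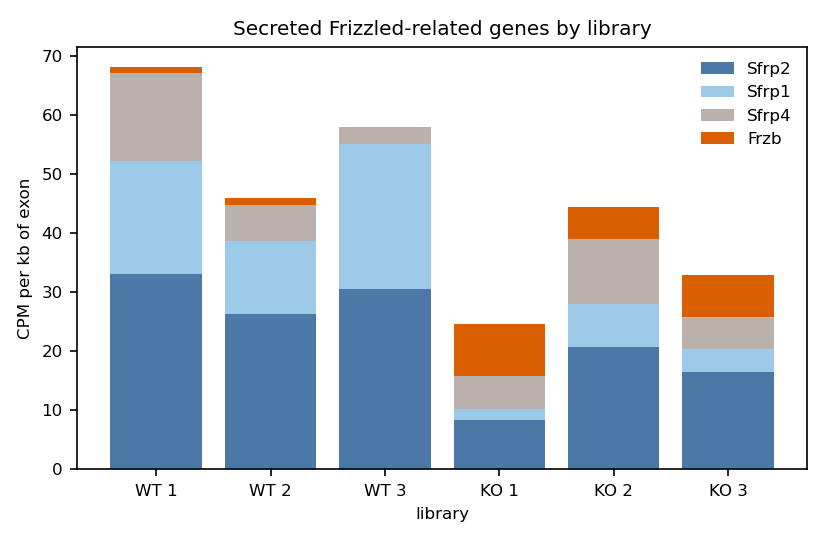
Stacked levels (y axis, TMM-normalized CPM per kb of exon) of Sfrp2, Sfrp1, Sfrp4 and Frzb in each of the 6 libraries (x axis). Frzb, whose row could enter the table only through KO, is at most 2.56% of a wild-type bar and at least 12.3% of a KO bar. The bars of KO 1 and KO 3 are the lowest.

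R-spondins strengthen Wnt signals by sparing Frizzled receptors from removal, and LGR proteins are their receptors. Lgr4 (chromosome 2, 109917647 to 110014257) had 16.3, 18.3 and 9.38 CPM in wild type and 62.6, 23.5 and 29.4 CPM in KO. Each KO library lay above each wild-type library, and KO 1 stood apart at the top. The log2 fold change was 1.29 (SE 0.43, adjusted p with limma = 0.326), and it was 0.87 without KO 1. Of the 9 Wnt genes with a seed match, Lgr4 and, in the opposite direction, Sfrp1 had an unadjusted p below 0.05 (22.2%, against 10.8% of 1858 genes with a match).

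The 2 R-spondins with a row pointed in opposite directions and overlapped between genotypes. Rspo2 had 68.5, 82.3 and 26.4 CPM in wild type and 15.3, 47.5 and 8.56 CPM in KO, where KO 2 lay above wild type 3. Its log2 fold change was −1.49 (SE 0.61, adjusted p with limma = 0.422). Rspo3 had 32.0, 16.8 and 12.3 CPM in wild type and 32.8, 41.6 and 31.2 CPM in KO, with a log2 fold change of 0.88 (SE 0.37, adjusted p with limma = 0.430). Wild type 1 reached the KO range of Rspo3, and without it the log2 fold change was 1.25. Rspo3 shares 404 of its 3090 exon bases with Gm48159 on the opposite strand.

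Nkd2 encodes a Naked cuticle protein, which binds Dishevelled and restrains the pathway. It had 20.7, 17.5 and 7.62 CPM in wild type and 0, 10.3 and 1.84 CPM in KO. The 0 reads of KO 1 allow up to 1.14 CPM. KO 2 overlapped the wild-type range, and the log2 fold change was −2.65 (SE 1.11, adjusted p with limma = 0.426), or −1.54 without KO 1 and −3.76 without KO 2. Dvl1, the Dishevelled gene with a row, had 30.2, 34.3 and 27.0 CPM in wild type and 21.8, 50.5 and 40.4 CPM in KO (log2 fold change 0.22, interval −0.53 to 0.97). On the opposite strand of Dvl1, Tas1r3 shares 36 exon bases and had 50.8 to 75.9 CPM, more than Dvl1 in every library.

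**Figure D3:**
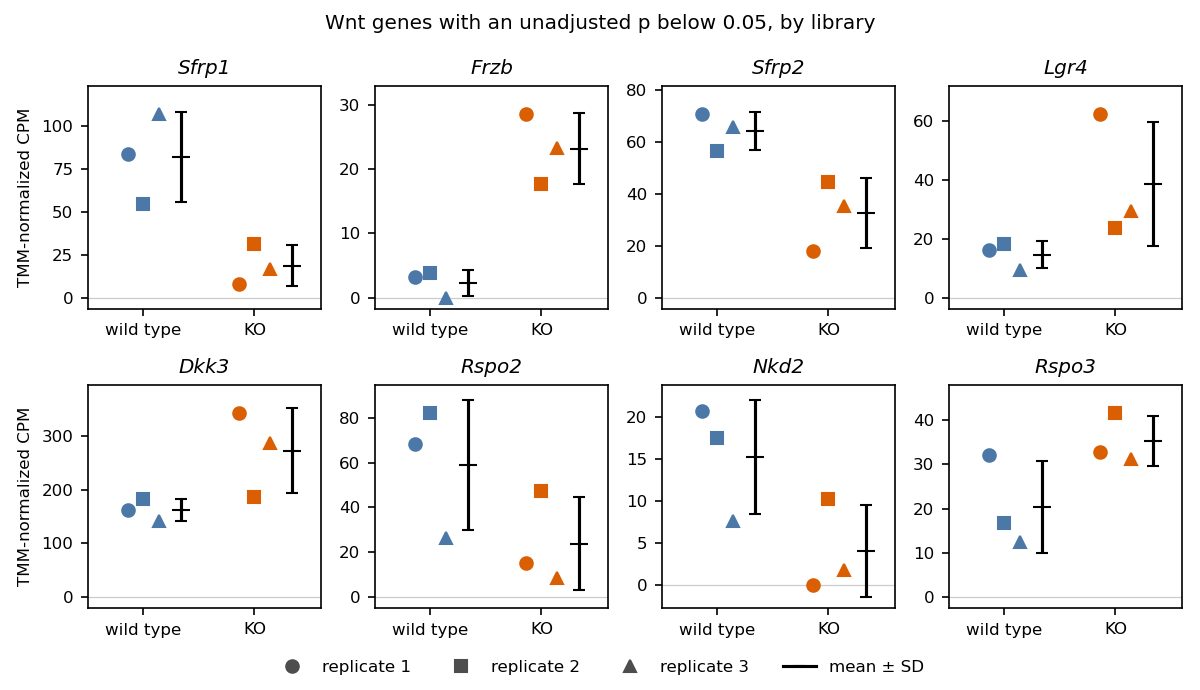
TMM-normalized CPM (y axis) of the 8 Wnt genes with an unadjusted limma p below 0.05 in each wild-type and KO library, with marker shape for the replicate number and bars for the mean ± SD of 3 libraries. Sfrp1, Sfrp2, Frzb, Lgr4 and Dkk3 do not overlap between genotypes, while Rspo2, Rspo3 and Nkd2 do. The row of Frzb could enter the table only through KO.

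Frizzled receptors bind the ligands, and 7 of them have a row. At an unadjusted limma p below 0.05 none was called, where 11% of all genes were. With adjusted p, edgeR called 0 of the 7 and 0.0196% of all genes. DESeq2 also called 0 of the 7, with 0.412% of all genes higher and 0.716% lower. Other settings differed at an unadjusted p: Fzd9 passed with DESeq2, with a pseudocount of 2 CPM, and without wild type 2 or wild type 3. Fzd7 and Fzd8 passed without KO 2, where 12.5% of all genes did. In limma with all 6 libraries, Fzd9 came closest. It had 0.628, 6.86 and 6.45 CPM in wild type and 20.2, 8.33 and 13.5 CPM in KO (log2 fold change 1.82, interval −0.05 to 3.70). Its groups did not overlap, but wild type 1 rested on 1 read, the log2 fold change without that library was 0.93, and its row could enter only through KO. Fzd7, a receptor of mesenchymal cells, had 17.6, 17.5 and 21.7 CPM in wild type and 37.4, 15.2 and 36.7 CPM in KO (0.54, interval −0.33 to 1.40). Fzd8 had 30.8, 19.05 and 29.9 CPM and 51.9, 20.1 and 37.3 CPM, with a log2 fold change of 0.38 (interval −0.47 to 1.23). KO 2 was the lowest KO library for 7 of the 7 Frizzled genes, against 37% of all genes, and KO 1 was the highest for 6 of them, against 33.8% of all genes.

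The other Frizzled genes gave log2 fold changes of 1.51 for Fzd4 (interval −1.05 to 4.06), 0.33 for Fzd5 (−0.61 to 1.27), 0.24 for Fzd1 (−0.84 to 1.32) and −0.07 for Fzd2 (−0.85 to 0.72). Fzd4 had 0 reads in wild type 2, which allows up to 2.29 CPM, and 6.91 to 9.92 CPM in the other 5 libraries, so its fold change rests on that library. Fzd1 had 29.5, 17.5 and 41.0 CPM in wild type and 40.8, 15.7 and 55.1 CPM in KO, and Fzd2 17.0, 20.6 and 18.8 CPM and 26.0, 12.7 and 17.1 CPM. Fzd5 had 14.1 to 19.8 CPM in 5 libraries and 37.4 CPM in KO 1. Summed per kb of exon, the 7 genes had 24.2, 22.7 and 30.8 CPM in wild type and 49.5, 20.7 and 41.7 CPM in KO. KO 2 had the lowest sum of the 6 libraries. In wild type, the mean level per kb of exon was highest for Fzd1 (4.18 to 9.78 CPM over its libraries), then Fzd2 (5.12 CPM), Fzd8 (4.45 CPM), Fzd7 (4.18 CPM), Fzd5 (2.36 CPM), Fzd9 (2.03 CPM) and Fzd4 (0.779 CPM). The means of Fzd2 and Fzd8 lay within the range of Fzd1, and Fzd5 and Fzd9 differed by less than the spread of Fzd9.

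No co-receptor or gene of the ligand side had an unadjusted limma p below 0.05, where 11% of all genes did. These are few genes, so little is read from that count. Lrp6, the LDL receptor relative that passes the Wnt signal on with Frizzled, had 97.4, 67.0 and 122.5 CPM in wild type and 163, 98.0 and 119 CPM in KO (log2 fold change 0.42, interval −0.21 to 1.04). Ryk, a receptor that acts beside Frizzled, had 77.3, 71.6 and 85.6 CPM and 101, 84.8 and 75.2 CPM (0.15, interval −0.31 to 0.60). Wls encodes Wntless, the carrier that brings Wnt proteins to the cell surface. It had 97.4, 105 and 119.6 CPM in wild type and 176, 120.5 and 119.9 CPM in KO, so that the groups touched without overlapping. Its log2 fold change was 0.35 (interval −0.13 to 0.84).

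Of the ligands, 2 have a row. Wnt4, which has been tied to chondrocyte maturation and joint formation, had 17.6, 28.2 and 37.5 CPM in wild type and 12.2, 23.0 and 17.1 CPM in KO, with overlap between genotypes (log2 fold change −0.63, interval −1.48 to 0.22). Wnt2b had 17.6, 50.3 and 53.9 CPM and 41.2, 27.9 and 36.1 CPM (−0.07, interval −1.01 to 0.87). The remaining Wnt ligands, Lrp5, Axin2, Lef1, Tcf7l1, Ror2, Dkk1, Dkk2, Sfrp5, Sost, Lgr5, Znrf3 and Rnf43 were not analysed here.

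The destruction complex, which marks β-catenin for breakdown, had no gene of 5 with an unadjusted limma p below 0.05, where 11% of all genes had one. With so few genes, little is read from that count. Gsk3b, a kinase of the complex, had 60.3, 41.9 and 31.1 CPM in wild type and 53.0, 31.8 and 42.8 CPM in KO (−0.04, interval −0.73 to 0.66). Gsk3a, the related kinase, had 118, 154 and 129.6 CPM and 117, 99.0 and 143 CPM (−0.17, interval −0.64 to 0.30). On the opposite strand of Gsk3a, 9130221H12Rik shares 820 exon bases and had 398 to 611 CPM, more than Gsk3a in every library. Axin1, the scaffold, had 30.8, 18.3 and 15.2 CPM and 25.6, 21.6 and 15.3 CPM (−0.01, interval −0.83 to 0.81). Apc had 94.9, 69.3 and 85.0 CPM and 85.1, 95.05 and 83.8 CPM (0.09, interval −0.36 to 0.55), and Apc2 had 85.4, 109 and 92.6 CPM and 62.6, 102 and 78.9 CPM (−0.26, interval −0.78 to 0.26). These intervals are too wide to show that the genes did not differ.

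Ctnnb1, the gene of β-catenin, is the hub of the pathway, which responds mainly through protein stability rather than transcript level. It had 249, 273 and 280.2 CPM in wild type and 386, 299 and 308 CPM in KO. Each KO library lay above each wild-type library, KO 1 farthest, and the within-genotype spread of Ctnnb1 was the lowest of the 37 (SD 0.156 on the log2 scale, against a median of 0.528 for the 37 and 0.42 for all genes). The log2 fold change was 0.30 (SE 0.18, interval −0.10 to 0.70, limma adjusted p = 0.545), and it was 0.18 without KO 1. Of its 5192 exon bases, 759 overlap Ulk4 on the opposite strand, which had 5.65 to 21.7 CPM.

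TCF factors carry β-catenin to DNA. Tcf7l2 had 10.1, 13.7 and 9.97 CPM in wild type and 8.40, 13.7 and 17.1 CPM in KO (log2 fold change 0.17, interval −0.79 to 1.13), and Tcf7 had 8.79, 9.14 and 5.28 CPM and 4.96, 5.88 and 14.1 CPM (−0.01, interval −1.37 to 1.35). Both overlapped between genotypes. The Groucho co-repressors, which keep TCF targets silent, have 4 genes with a row. None had an unadjusted limma p below 0.05, where 11% of all genes did. Tle6 and Tle4 are among the rows that could enter only through KO, so nothing is read from the direction of their fold changes. Tle1 had 3.14, 11.4 and 6.45 CPM in wild type and 27.9, 6.86 and 24.5 CPM in KO (1.37, interval −0.11 to 2.85), and KO 2 lay within the wild-type range. Tle6 had 6.28, 5.33 and 3.52 CPM and 11.4, 14.7 and 7.95 CPM without overlap (1.09, interval −0.16 to 2.34). Tle3 had 11.3, 12.2 and 3.52 CPM and 12.2, 29.4 and 11.01 CPM (0.95, interval −0.38 to 2.29), and Tle4 3.77, 3.81 and 5.28 CPM and 1.14, 12.7 and 12.8 CPM (0.48, interval −1.67 to 2.64). The high KO library was KO 2 for Tle3 and Tle6 and KO 1 for Tle1.

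The WISP genes encode matrix proteins that were named as Wnt-induced. Wisp2, the member with the highest level per kb of exon among the 37 in both genotypes (wild-type mean 89.5 CPM, KO mean 126 CPM), had 202, 125 and 190.0 CPM in wild type and 290.1, 219 and 217 CPM in KO without overlap. Its log2 fold change was 0.51 (SE 0.23, interval −0.02 to 1.03, limma adjusted p = 0.462). Wisp1 had 39.0, 67.0 and 103 CPM and 53.0, 75.5 and 46.5 CPM (−0.17, interval −0.97 to 0.62). After Wisp2, the highest levels per kb of exon in wild type were those of Ctnnb1 (51.5 CPM), Dkk3 (48.4), Gsk3a (46.2), Wif1 (30.8) and Sfrp2 (29.9). The order of Ctnnb1, Dkk3 and Gsk3a lies within the spread of their libraries, as does that of Wif1 and Sfrp2.

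In all, 8 Wnt genes had KO values wholly above the wild-type values (Frzb, Lgr4, Dkk3, Fzd9, Wisp2, Tle6, Ctnnb1 and Wls), and 2 had them wholly below (Sfrp1 and Sfrp2). Of all genes, 8.82% were wholly above and 9.57% wholly below. Without the 4 rows that could enter only through KO, the counts were 5 and 2 of 33, while the shares of all genes still include any such rows.

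The KO libraries were not alike in these genes. On the log2 scale, KO 2 was the KO library nearest to the wild-type mean for 21 of the 37 (56.8%), against 31.2% of all genes, and KO 1 was the farthest for 20 (54.1%), against 38.5% of all genes. For the 8 genes of unadjusted p below 0.05, which the same values chose, KO 2 was nearest in 7 and KO 1 farthest in 6. KO 2 also carried the highest sum of macrophage and leukocyte markers, and KO 1 the lowest, as given below.

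**Figure D4:**
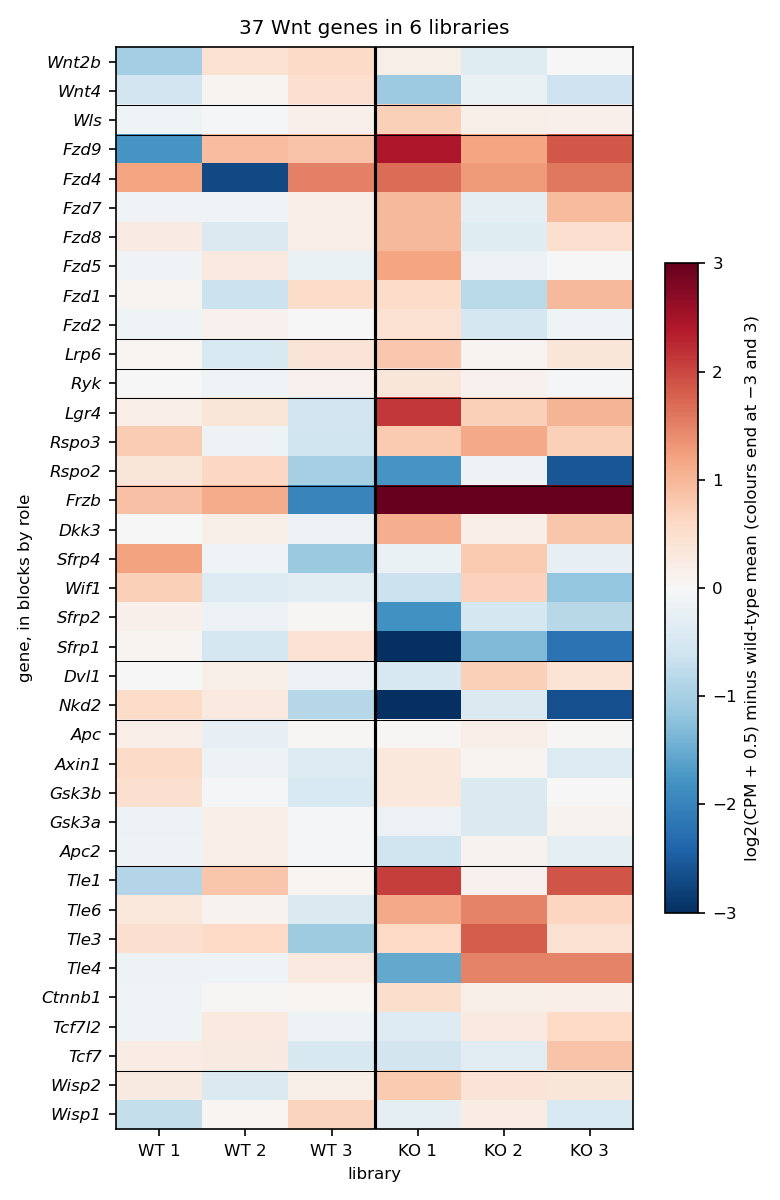
Map of log2(CPM + 0.5) minus the wild-type mean (colour scale) for the 37 Wnt genes (rows, in blocks by role) in the 6 libraries (columns). KO 2 is the palest of the KO columns for 21 of the 37 genes, and Frzb, Sfrp1 and Nkd2 have the strongest colours in KO 1.

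Markers of cell types and states moved with these genes, and their part in the results was not tested. Of 16 chondrocyte markers with a row, 14 had log2 fold changes above 0, and their summed level was 2545 to 3919 CPM in wild type and 3936 to 7267 CPM in KO. The marker 3110079O15Rik (Snorc) was at 0 in wild type 1. All 6 osteoblast markers lay above 0, with sums of 654.9 to 1991 CPM and 2932 to 3914 CPM, and Bglap and Bglap2 at 0 in the 3 wild-type libraries. The rows of Bglap and Bglap2 could therefore enter the table only through KO. Nothing is read from their direction, and the count and the KO sums include them. Of 6 markers of mural cells, the contractile cells of vessel walls, 5 lay below 0, each at an unadjusted limma p below 0.05 (6.4% of all genes were lower at such a p), and the sixth, Cspg4, lay above 0 at such a p. Other lists also had markers at such a p. Among them, 7 chondrocyte and 2 osteoblast markers were higher (4.64% of all genes were), and 6 proliferation markers were lower. Of the fibroblast list, 4 were lower and 1 higher, and of the macrophage and leukocyte list 1 was lower. The mural markers had sums of 511.8 to 715 CPM in wild type and 183 to 421 CPM in KO and no marker at 0. Among KO libraries, the mural sum and Sfrp1 had the same order, KO 2 above KO 3 above KO 1 (421, 277 and 183 CPM against 31.4, 16.5 and 8.01 CPM). The macrophage and leukocyte sum had this order too (15010, 3411 and 1032 CPM), and the endothelial sum was also highest in KO 2. Whether any of these sums bears on Sfrp1 was not tested. In wild type the order of the mural sum (715, 618 and 512 CPM in wild type 2, 1 and 3) was the reverse of that of Sfrp1.

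Of 13 macrophage and leukocyte markers, 11 lay below 0, and the sums were 5159 to 6110 CPM in wild type and 1032, 15010 and 3411 CPM in KO 1, 2 and 3, with none at 0. Of 9 markers of fibroblasts and dedifferentiation, 5 lay above and 4 below 0, with sums of 7224 to 8758 CPM and 5107 to 7804 CPM, and Dpt at 0 in wild type 2. All 12 proliferation markers lay below 0 (1639 to 1935 CPM in wild type and 868 to 1242 CPM in KO, none at 0). The 2 endothelial markers with a row, Pecam1 and Cdh5, were both at 0 in KO 1 and KO 3 and summed to 43.6 CPM in KO 2 and to 11.3 to 34.01 CPM in wild type.

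Genes of the pathway outside the naming rule were taken from lists written from general knowledge of Wnt signalling. Of 77 such genes with a row, 3 higher and 4 lower had a limma p below 0.05 before adjustment, 9.09% against 11% of all genes, and the median log2 fold change was −0.03. Invs passed with limma (adjusted p = 0.00873). Invs encodes inversin, a ciliary protein that binds Dishevelled and favours the planar polarity branch over the β-catenin branch, and it had 245, 210 and 206 CPM in wild type and 50.4, 46.1 and 53.8 CPM in KO, a log2 fold change of −2.12 (SE 0.18). It shares 226 exon bases with Tex10 on the opposite strand, and it no longer passed with limma without wild type 1 (adjusted p = 0.160) and without wild type 1 and KO 2 (0.0787). Prickle3, a planar polarity gene that shares 246 exon bases with Plp2, had a log2 fold change of −0.55 (SE 0.20), and Csnk2b, a casein kinase subunit, −0.63 (SE 0.28). Among nuclear partners, Pygo2, which binds the β-catenin complex to chromatin, had 10.7, 4.57 and 5.86 CPM in wild type and 16.8, 17.1 and 15.3 CPM in KO without overlap (1.25, SE 0.46), and the co-repressor Ctbp2 had −0.56 (SE 0.22). In the calcium branch, Prkca and Ppp3ca had 1.05 (SE 0.42) and 0.51 (SE 0.22). Limma with adjusted p called none of these last 6 genes.

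Of 21 genes known as Wnt targets in other tissues, 13 had log2 fold changes above 0 (61.9%, against 51.4% of all genes). The median was 0.24, against 0.02 over all genes. Of the 21, 2 had a limma p below 0.05 before adjustment, both higher (9.52%, against 11% of all genes). Tnfrsf11b, which encodes the decoy receptor osteoprotegerin that β-catenin induces in bone cells, had 322, 169 and 246 CPM in wild type and 460, 343 and 410 CPM in KO, without overlap (log2 fold change 0.76, SE 0.25, limma adjusted p = 0.326). Nrcam, a cell adhesion gene, had 5.03, 0 and 7.04 CPM and 35.1, 6.37 and 42.8 CPM, where KO 2 lay within the wild-type range. No wild-type value of Nrcam reached 7.35 CPM. Its row could therefore enter the table only through KO, and nothing is read from the direction of its fold change. The log2 fold change of Nrcam was 3.00 (SE 1.11, adjusted p with limma = 0.368), and 1.77 without wild type 2, whose 0 reads allow up to 2.29 CPM.

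The 9 Wnt genes with a miR-34a seed match had a median log2 fold change of 0.09, with 5 above 0, and the 28 without one, Frzb, Fzd9, Tle6 and Tle4 among them, 0.32. Over all genes the medians were 0.04 with a match and 0.03 without. Lgr4 (1.29) and Sfrp1 (−2.25), whose sites are printed above, were the ends of the range. Dvl1 had 0.22 and Wnt4 −0.63, and the other 5, Fzd8, Ryk, Apc, Gsk3b and Wisp1, lay between −0.17 and 0.38.

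The fold changes of the 8 genes of unadjusted p below 0.05 kept their sign when each library was left out. They also kept it when wild type 1 and KO 2 were both left out. The same values had chosen these genes. Sfrp1, Sfrp2, Frzb, Lgr4 and Dkk3 do not overlap between genotypes, so leaving libraries out could not turn their sign. The size of the fold changes varied: that of Frzb ranged from 2.55 to 4.16, that of Sfrp1 from −2.72 to −1.77, and that of Nkd2 from −3.76 to −1.54.

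**Figure D5:**
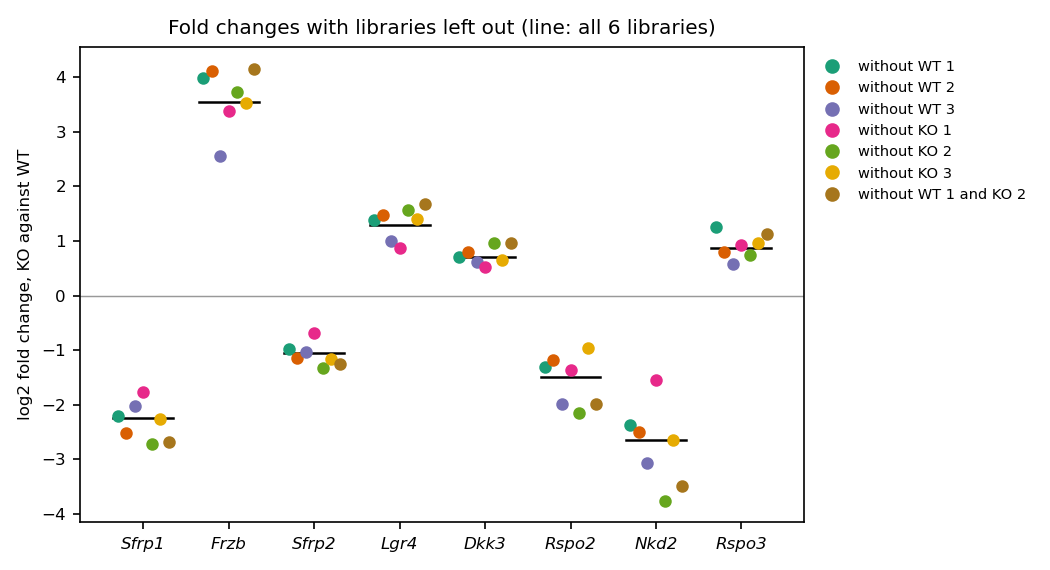
Log2 fold change (y axis, KO against wild type) of the 8 Wnt genes (x axis) with all 6 libraries (black line) and with the libraries named in the key left out (points). Every point lies on the same side of 0 as its line, which was bound to be so for Sfrp1, Sfrp2, Frzb, Lgr4 and Dkk3. Leaving out KO 1 brings Sfrp1, Sfrp2, Lgr4, Dkk3 and Nkd2 closest to 0.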

How the data were processed

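Total RNA of 3 KO and 3 wild-type chondrocyte samples was sequenced from stranded libraries with 75 cycles per end, per the labels' protocols. The deposited signal per gene and library is TMM-normalized CPM of filtered genes, per the name of the table. The submitters' processing notes list bcl2fastq, cutadapt 1.18, HISAT2 2.1.0, StringTie 1.3.5, edgeR and mm10, without roles. Whole reads were recovered from the steps of the values (100% whole, tolerance 0.001 reads). The column name of KO 3 differs from its title by 1 character, the other 5 match, and 0 columns were unmapped. GENCODE M21 held 10131 of the symbols (99.4%), all 37 Wnt genes among them.

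Genotypes were tested two-sided in limma 3.58.1 under R 4.3.3, with its trend option, on log2 of CPM plus 0.5. Adjustment was by Benjamini and Hochberg over the 10189 genes. For low genes such log2 fold changes depend on the pseudocount and on libraries with few or no reads, and may be too large or too small. With limma against DESeq2 they were 1.51 against 0.75 for Fzd4, −2.65 against −1.91 for Nkd2 and 0.48 against 1.05 for Tle4. The 95% intervals are not adjusted. Alternatives included edgeR 4.0.16 and DESeq2 1.42.0 on recovered reads, other scalings and filters, and left-out libraries. Exon length is the union of annotated exons. UTRs under 20 bases were left out. The procedure was tested on simulated counts. Replicates differed by more than sampling noise (chi-square over its degrees of freedom 5.83 to 27.8). The members and lists were chosen with earlier results of these data known. Values by library are given for genes with an unadjusted p below 0.05, genes without overlap, and a set of core genes, and from the other lists up to 4 genes per direction were named. Values of the remaining Wnt genes were added besides.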

Additional observations from a re-analysis of the deposited data

How the results depend on the processing

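The log2 fold changes of Frzb, Lgr4, Dkk3, Rspo3, Sfrp1, Sfrp2, Rspo2 and Nkd2 kept their sign under the other pseudocounts, scalings, variance models, count tests and left-out libraries. So did 6 of them under the filter on means below 20 CPM, which leaves out Frzb and Nkd2. All 8 genes were chosen by the same values. Left-out libraries could not turn the sign of those that do not overlap between genotypes. The number of Wnt genes passing an adjusted p was 0 higher and 0 lower with limma, 1 and 1 with DESeq2, and 0 and 1 with DESeq2 on the deposited scaling, and 0 to 1 lower when each library was left out, the 1 being Sfrp1 without KO 2. At an unadjusted p, 1 to 6 were higher and 2 to 5 lower with each library left out (4 and 4 with all), 8 were higher without wild type 1 and KO 2, and 2 were lower with edgeR. Of all 10189 genes, 338 to 524 were higher and 384 to 795 lower with each library left out (473 and 652 with all). Without wild type 1 and KO 2, 522 of all genes were higher, and with edgeR 593 were lower. Replicate numbers do not pair the samples (correlations of deviations 0.0176, 0.0651 and −0.0555 for numbers 1, 2 and 3, and not every sample correlated best with its own number). A replicate block gave 5 Wnt genes higher and 4 lower at an unadjusted p, where 465 of all genes were higher and 649 lower. It called 0 of all genes lower, with Invs losing its call (adjusted p of 0.123) in limma.

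Of all genes, limma called 0 higher and 1 lower. No trend gave 7 and 3, the robust option 1 and 3, pseudocount 2 gave 2 lower, edgeR 2 lower, DESeq2 42 and 73 (26 and 102 with the deposited scaling), and leaving out wild type 1 and KO 2 gave 2 lower. With each library left out, 0 to 7 were called higher and 0 to 25 lower, and 384 to 795 were lower at an unadjusted p. With a mean of at least 20 CPM, 289 genes were higher at an unadjusted p.

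The sign turned for 14 of the 37 Wnt genes, each with an interval that includes 0. The causes were not tested. With each library left out, the log2 fold change ranged from −0.03 to 0.19 for Apc, −0.22 to 0.28 for Axin1, −0.03 to 0.57 for Dvl1, −0.13 to 0.76 for Fzd1, −0.33 to 0.17 for Fzd2, −0.10 to 0.58 for Fzd5, −0.27 to 0.21 for Gsk3b, −0.45 to 0.71 for Sfrp4, −0.44 to 0.26 for Tcf7, −0.05 to 0.45 for Tcf7l2, −0.02 to 1.49 for Tle4, −0.90 to 0.03 for Wif1, −0.53 to 0.16 for Wisp1 and −0.58 to 0.21 for Wnt2b. Without wild type 1 and KO 2 it was 0.24 for Axin1, −0.04 for Dvl1, 0.10 for Fzd2, 0.40 for Gsk3b, 0.26 for Tcf7 and −0.09 for Tle4. DESeq2 gave 0.01 for Fzd2, −0.10 for Sfrp4 and 0.10 for Tcf7, and with the deposited scaling −0.12 and 0.09 for Sfrp4 and Tcf7, as did edgeR. Median-ratio scaling gave 0.01 for Axin1 and 0.00 for Tcf7, limma-voom 0.03 for Axin1 and −0.22 for Tle4, and quantile normalization −0.08 for Tle4. Array weights gave 0.03 for Gsk3b and 0.20 for Tcf7, and pseudocount 2 gave 0.00 for Tcf7. Depth limits the low genes most: 0 to 5 reads stand behind some wild-type values of Frzb, Fzd9, Tle1 and Tle4.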
